A study of Homo sapiens with 14 samples.

Results

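Actin, myosin and actin-binding genes were followed through 2 ways of lowering CALCRL, the receptor subunit for adrenomedullin and calcitonin gene-related peptide, in a human endothelial cell line. The genes were chosen by symbol alone: actins and actin-related proteins, subunits of the Arp2/3 complex and of capping protein, cofilins, profilins, tropomyosins, myosin light and heavy chains, unconventional myosins, alpha-actinins, filamins, talins, vinculin, zyxin and the PDLIM family. This gave 70 of the 12202 genes listed in either deposited table. The siRNA table held 65 of them and the deletion table all 70, so 65 were measured in both. MYH16, MYL4, MYO18A, MYO5B and TLN2 were in the deletion table alone. The symbols also took in genes whose products do not bind the actin cortex, such as the dynactin subunits ACTR1A, ACTR1B and ACTR10 and the nuclear actin-related proteins ACTR5, ACTR6 and ACTR8.

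All 14 libraries came from teloHAEC, aortic endothelial cells immortalised with telomerase, which is 1 established line grown in VEGF-supplemented endothelial medium. In the siRNA comparison, 4 libraries from cells given an siRNA against CALCRL were set against 4 from cells given a scrambled siRNA, both reverse transfected with a lipid reagent and lysed after 24 hours. In the deletion comparison, 3 libraries from cells electroporated with Cas9 ribonucleoprotein and guides flanking an enhancer labelled as that of CALCRL were set against 3 from cells electroporated with Cas9 and a guide against HPRT, all collected after 2 days. The controls of the deletion therefore also carried a nuclease and a cut at another gene, and the labels describe electroporated populations and name no clone or selection. All libraries were 3′ mRNA libraries (QuantSeq FWD, 86 cycles, single end), which count fragments near the end of each transcript. Nothing in the labels says that the replicates were separate cultures, so the p-values measure only the spread between these samples, which may be technical.

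Actin filaments are built from actin monomers held ready by profilin, are severed and turned over by cofilin, and stop growing where capping protein covers the fast-growing end. The Arp2/3 complex starts new branches from the side of an existing filament, whereas tropomyosins coat unbranched filaments, and non-muscle myosin II with its light chains pulls on them. In endothelium this system sets cell shape, the contractile tension on cell junctions and the stress fibres that anchor at focal adhesions. CALCRL signals mainly through cyclic AMP, and adrenomedullin is known for tightening the endothelial barrier.

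The tables used here hold 1 fold change per gene and comparison and no value for a single library, so depth per library is unknown and libraries that stand apart could not be looked for. The spread enters only through the standard error (SE) of each log2 fold change. A group mean, as given below in normalised counts, is the pair of values implied by a gene's deposited mean over all libraries and its fold change. "Called" means an adjusted p under 0.05 in the authors' DESeq2 Wald test. CALCRL itself had an implied mean of 318 in scrambled and 108 in CALCRL siRNA libraries, 34.0% of control (95% interval 27.1 to 42.7), and 207 in control-guide and 74.8 in deletion libraries, 36.2% (20.2 to 64.7). The authors' deposited table called it lower in both comparisons (adjusted p = 1.90e-17 for the siRNA and 0.00962 for the deletion). The median SE over all genes was 0.17 for the siRNA and 0.41 for the deletion.

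Endothelial identity was checked with 10 markers, of which 9 had a row in both tables and PECAM1 was not analysed here. In the siRNA comparison none of them was called and their summed means were 6257 in control and 6249 in treated libraries. In the deletion comparison CDH5 (VE-cadherin) and KDR (the main VEGF receptor) were called lower in the authors' deposited table, with log2 fold changes of -1.44 (SE 0.35, adjusted p = 0.00142) and -1.05 (SE 0.31, adjusted p = 0.00966), and the summed endothelial means were 5937 and 3990. The other 7 endothelial markers were not called. Of all 9 fold changes 6 were negative and 3 positive (CLDN5, TIE1 and VWF). Of 8 smooth muscle markers 3 had a row (ACTA2, SMTN and TAGLN), none was called, and their sums were 832 and 847 in the siRNA and 506 and 578 in the deletion comparison. Keratins KRT8 and KRT18, the 2 of 4 epithelial markers with a row, summed to 2510 and 2116 in the siRNA and to 1992 and 4298 in the deletion comparison, where KRT18 was called higher in the authors' deposited table (1.13, SE 0.30, adjusted p = 0.00425). None of 7 striated muscle and 4 leukocyte markers had a row. The part of these shifts in the deletion results below was not tested.

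Together the actin and myosin genes made up 2.89% of the summed normalised counts of the siRNA table and 3.11% of those of the deletion table. ACTG1, cytoplasmic gamma-actin, had the highest mean of all members, 26092 normalised counts in the siRNA and 33538 in the deletion table. Next in both tables, in differing order, came MYL6, the essential light chain of non-muscle myosin, at 9331 and 12097, TPM4, a short cytoskeletal tropomyosin, at 9162 and 16948, CFL1, the main non-muscle cofilin, at 8223 and 8867, and ACTB, beta-actin, at 6305 and 11185. These levels were compared without division by transcript length, because a 3′ library samples each message near its end. At the other end, 4 members in the siRNA and 9 in the deletion table had means under 20, and none of those was called. Among class II heavy chains MYH9 stood at 3710 and 4630, while MYH10 was at 116 and 202, so the non-muscle IIA chain predominated.

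Few of these genes differed between CALCRL siRNA and scrambled siRNA. Of 65 members, 3 were called (4.62%), against 3.46% of all 11261 genes in the table. ACTR3 and FLNC were lower, where 2.42% of all genes were, and CAPZA1 was higher, where 1.05% were. The median log2 fold change over members was 0.04 (37 positive, 28 negative, range -0.80 to 0.38), beside 0.00 over all genes. Summed over members, the implied means were 132540 in control and 130384 in treated libraries. At an unadjusted p under 0.05 the members numbered 12.

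ACTR3 encodes the actin-related subunit Arp3, which with Arp2 forms the template for a new branch. It lies on chromosome 2 (GRCh38, chr2:113889960-113962596, plus strand). The implied mean fell from 1442 in scrambled to 830 in CALCRL siRNA libraries, 57.6% of control (95% interval 50.4 to 65.7). In the authors' deposited table this was a log2 fold change of -0.80 (SE 0.10, adjusted p = 2.01e-13), the lowest of the 65 members. The other 9 subunit genes of the complex were not called, with fold changes from -0.04 for ARPC2, the most abundant one (4576 and 4441), to 0.26 for ACTR3B, and a median of 0.09 over all 10. ACTR2, the Arp2 partner of ACTR3, had 0.08 (SE 0.09, adjusted p = 0.868). ARPC1B had 0.12 (SE 0.07, adjusted p = 0.526) and ARPC3 0.10 (SE 0.18, adjusted p = 0.942) in the same table. Thus 1 of 10 subunit genes passed the test.

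An earlier pass over this siRNA table had singled out a 7-base word, GTAACAA, as common in the 3′ UTRs of genes lower after the siRNA, and ACTR3 holds it. Because the word was picked from these same fold changes, its presence is a description and no independent support. In the longest annotated 3′ UTR of each gene (GENCODE release 29, transcribed strand), the word occurred in 1108 of 10902 genes (10.2%) and in 5 of 68 members (7.35%): ACTR2, ACTR3, MYO6, MYO9A and TPM1. The longest annotated 3′ UTR need not be the one used in these cells. The TPM1 site lies near the start of its gene (chr15:63042632-63071915, plus strand). It belongs to a transcript that ends early, so other TPM1 messages need not hold the word. Each site is shown to let the flanks of the fallen gene be compared with those of the others, 5′ to 3′, with the word in capitals.
ACTR3, chr2:113957679-113957685: gaatcttatgtGTAACAAaaagaagtggg
MYO6, chr6:75918080-75918086: tgcaatcatatGTAACAAaaagaaccaaa
MYO6, chr6:75918322-75918328: gggaaacagttGTAACAAtaaggaaagag
MYO9A, chr15:71823655-71823661: ttatggaaaatGTAACAAaagcagagaag
MYO9A, chr15:71823224-71823230: tgtttttcactGTAACAAgcactttggta
MYO9A, chr15:71822411-71822417: ggggttgagggGTAACAAgataccatctg
TPM1, chr15:63045096-63045102: ttgggaagttgGTAACAAttccaagaatg
ACTR2, chr2:65269320-65269326: cgggggggaggGTAACAAtgggtggtctt

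In the order shown, the siRNA log2 fold changes in the authors' deposited table were -0.80 for ACTR3, -0.23 for MYO6 (SE 0.10, adjusted p = 0.262), -0.03 for MYO9A, -0.03 for TPM1 and 0.08 for ACTR2. MYO6 is the myosin that walks towards the pointed end of actin filaments, and its implied means of 365 and 311 differed by less than the threshold required. Holding the word therefore did not go with a lower level in every member: ACTR2, with 1 copy as in ACTR3, was on the other side of 0, and MYO9A, with 3 copies, was near 0. Over all 1085 genes of the siRNA table with the word, the median log2 fold change was -0.12, and 155 (14.3%) were called lower, beside 0.00 and 2.42% over all genes, in the same fold changes that had picked the word. In the deletion table, which did not serve to pick the word, the 1083 genes with it had a median of -0.14 and 9.14% were called lower, beside 0.00 and 8.44% over all genes. The other 2 called members, FLNC and CAPZA1, had no match in the window searched.

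FLNC, filamin C, crosslinks filaments and links them to the membrane, and is known mostly from striated muscle. Its implied mean fell from 429 in scrambled to 280 in CALCRL siRNA libraries, 65.3% of control (95% interval 53.7 to 79.4). In the authors' deposited table this was a log2 fold change of -0.62 (SE 0.14, adjusted p = 0.00137). The gene lies at chr7:128830377-128859274 on the plus strand, and the annotated antisense gene FLNC-AS1 overlaps it; use of strand in the counting was not given in the sources used here. FLNA, filamin A, had -0.33 in the same table and did not pass (SE 0.15, adjusted p = 0.291; 6238 and 4972). The alpha-actinins had positive ones, 0.18 for ACTN1 (SE 0.07, adjusted p = 0.128; 4352 and 4941) and 0.06 for ACTN4 (SE 0.20, adjusted p = 0.981). Of the 5 crosslinkers, 1 was called, and their median was -0.19.

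CAPZA1, the alpha-1 subunit of capping protein, was the member called higher. Its implied mean rose from 1246 to 1576, 127% of control (95% interval 111 to 144), with a log2 fold change in the authors' deposited table of 0.34 (SE 0.10, adjusted p = 0.0150). It lies at chr1:112619173-112671619 on the plus strand and overlaps ST7L on the opposite strand. The beta subunit CAPZB had -0.08 (SE 0.16, adjusted p = 0.959; 2160 and 2046) and the other alpha subunit CAPZA2 0.05 (SE 0.16, adjusted p = 0.979) in the same table. Capping protein works as a dimer of an alpha and a beta chain, and only the alpha-1 message passed the test here. With statistics divided by their robust standard deviation its adjusted p was 0.0528. Reading the statistics against Student's t with 6 degrees of freedom, in place of the normal curve, left no member called, with adjusted p of 0.113 for ACTR3, 0.375 for FLNC and 0.491 for CAPZA1, and 6 members at an unadjusted p under 0.05.

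No other gene of the contractile machinery passed the test after the siRNA. The 3 actins had log2 fold changes in the authors' deposited table of -0.04 (ACTG1, SE 0.13), 0.02 (ACTB, SE 0.08) and 0.23 (ACTA2, the smooth muscle actin, SE 0.12, adjusted p = 0.416). For ACTB the 95% interval of treated over control was 90.8% to 113%. It rests on the normal curve and the spread between these libraries, and one from Student's t would be wider. CFL1 had 0.04 (SE 0.07, adjusted p = 0.955) and PFN1, the main profilin, 0.10 with a wide SE of 0.38 in the same table. MYH9, the non-muscle myosin IIA chain, had -0.27 (SE 0.10, adjusted p = 0.125; 4053 and 3367) and TPM3 0.27 (SE 0.09, adjusted p = 0.0816; 2726 and 3297) in the authors' deposited table, the 2 nearest to the threshold without passing. MYL6 (-0.05, SE 0.08), TPM4 (-0.01, SE 0.16), PDLIM1 (0.01, SE 0.09) and MYO1C (-0.05, SE 0.12), each the most abundant gene of its role, were at or near 0 in that table. None of 6 light chains, 3 class II heavy chains, 11 unconventional myosins, 4 tropomyosins, 4 cofilins and profilins, 7 other actin-related genes and 9 adhesion and stress fibre genes was called.

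**Figure D1:**
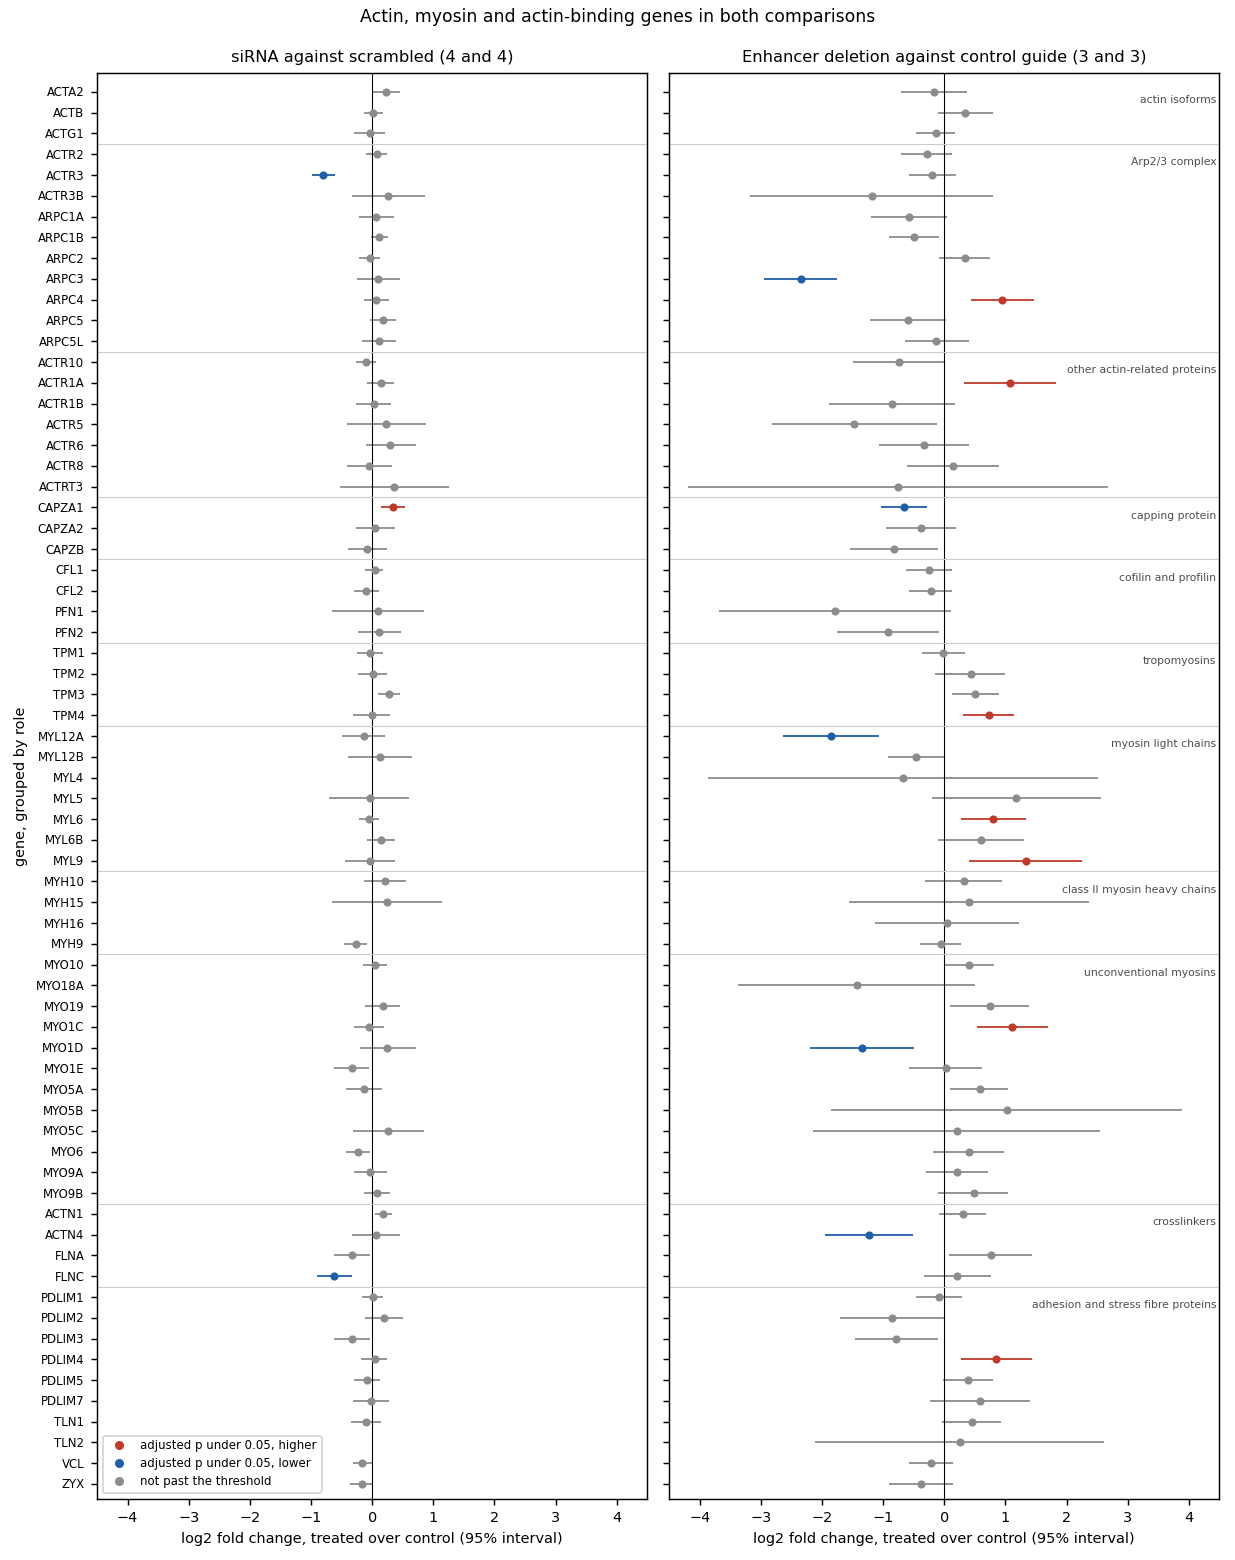
Log2 fold change, treated over control, of the members named on the axis in the siRNA comparison (left, 4 and 4 libraries) and the deletion comparison (right, 3 and 3), grouped by role; points are fold changes from the authors' deposited tables and bars 95% intervals. Coloured points passed an adjusted p of 0.05: 3 on the left, where most genes sit near 0 with short bars, and 12 on the right, spread from -2.35 to 1.33 with longer bars.

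After deletion of the enhancer the members moved further, and in both directions. Of 70 members, 12 were called (17.1%), against 15.8% of all 11830 genes tested, a share near the background. Higher were 7 members, where 7.40% of all genes were called higher, and lower were 5, where 8.44% were. The median log2 fold change was -0.07 (33 positive, 37 negative, range -2.35 to 1.33), beside 0.00 over all genes, and the summed implied means were 154958 in control and 166114 in deletion libraries. At an unadjusted p under 0.05 the members numbered 22. The RNA is from bulk cells, so a change in every cell and a change in some of them cannot be told apart.

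Within the Arp2/3 complex the called genes went in opposite directions. ARPC3, the p21 subunit, fell from an implied mean of 1165 in control-guide to 228 in deletion libraries, 19.6% of control (95% interval 12.9 to 29.8). Its log2 fold change was -2.35 in the authors' deposited table (SE 0.31, adjusted p = 1.20e-10), the lowest of the 70 members. ARPC4, the p20 subunit that together with ARPC2 forms the structural core, rose from 979 to 1890, 193% of control (135 to 276), with 0.95 in the authors' deposited table (SE 0.26, adjusted p = 0.00616). ARPC3 lies at chr12:110434825-110450422 on the minus strand and ARPC4 at chr3:9792495-9807726 on the plus strand, where the read-through ARPC4-TTLL3 shares its sequence and TADA3 overlaps on the other strand. ACTR3, the subunit lower after the siRNA, had -0.20 (SE 0.20, adjusted p = 0.543; 1863 and 1627) after the deletion in the authors' deposited table. ARPC1B had -0.50 (SE 0.21, adjusted p = 0.0803; 1841 and 1303), and ARPC2 was the other positive member at 0.34 (SE 0.21, adjusted p = 0.284; 5294 and 6678) in that table. Of the 10 subunit genes 8 had a negative sign, and the median was -0.39.

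Of the 7 capping protein, cofilin and profilin genes 1 was called. CAPZA1, higher after the siRNA, fell after the deletion from 2034 to 1285, 63.2% of control (95% interval 48.5 to 82.4), with -0.66 in the authors' deposited table (SE 0.20, adjusted p = 0.0102). CAPZB, with -0.83 (SE 0.36, adjusted p = 0.100; 2668 and 1504), and CAPZA2, with -0.38 (SE 0.29, adjusted p = 0.388), were not called there. All 4 cofilins and profilins had a negative sign and none was called. PFN1, which feeds monomers to growing ends, had implied means of 2512 and 729, yet its 95% interval ran from 7.83% to 108% of control (log2 fold change -1.78, SE 0.96, adjusted p = 0.199 in the authors' deposited table). PFN2 had -0.92 (SE 0.43, adjusted p = 0.122) and CFL1 -0.25 (SE 0.19, adjusted p = 0.378; 9645 and 8089) in that table. The actins themselves were not called: ACTG1 had -0.14 (SE 0.17; 35192 and 31884), ACTB 0.34 (SE 0.23; 9863 and 12507) and ACTA2 -0.17 (SE 0.27; 193 and 172) in the authors' deposited table.

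Myosin light chains held 3 of the called genes. MYL12A, a regulatory light chain of non-muscle myosin II, fell from 3998 to 1106, 27.7% of control (95% interval 16.1 to 47.6), with -1.85 in the authors' deposited table (SE 0.40, adjusted p = 2.91e-04). MYL9, the regulatory light chain best known from smooth muscle, rose from 28.8 to 72.1, 251% of control (132 to 475), with 1.33 there (SE 0.47, adjusted p = 0.0362). The essential light chain MYL6 rose from 8814 to 15380, 174% of control (121 to 252), with 0.80 in the authors' deposited table (SE 0.27, adjusted p = 0.0272). The regulatory chain that rose was thus by far the less abundant. MYL12A (chr18:3247481-3256236) and MYL12B (chr18:3261479-3278431) are neighbours on the plus strand with closely related sequence, and of the 50-base words in the last 500 bases of MYL12A, 11.8% also occur in another gene. MYL12B was not called, with -0.46 (SE 0.24, adjusted p = 0.169; 1926 and 1399) in that table. MYL6 lies at chr12:56158161-56163496 and overlaps MYL6B, and MYL9 at chr20:36541484-36551447, all on the plus strand.

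The myosin heavy chains of class II showed no call. MYH9 had implied means of 4727 and 4533 and -0.06 (SE 0.17, adjusted p = 0.846) in the authors' deposited table. Class I myosins, single-headed motors that tie the membrane to actin, held both called unconventional myosins. MYO1C rose from 1533 to 3306, 216% of control (95% interval 144 to 323), with 1.11 in the authors' deposited table (SE 0.30, adjusted p = 0.00444). MYO1D fell from 143 to 56.6, 39.4% of control (21.9 to 71.0), with -1.34 there (SE 0.43, adjusted p = 0.0203). Both lie on the minus strand of chromosome 17, at chr17:1464186-1492812 and chr17:32492522-32877177. MYO1E, of the same class, had 0.02 (SE 0.30) in the authors' deposited table, so these class I genes did not move as one. MYO5A, a vesicle carrier, had 0.58 (SE 0.24, adjusted p = 0.0846) and the mitochondrial myosin MYO19 0.74 (SE 0.33, adjusted p = 0.109) without being called. Of 13 unconventional myosins 10 had a positive sign, with a median of 0.40.

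Tropomyosins, crosslinkers and adhesion proteins gave 3 further calls. TPM4 rose from 12774 to 21121, 165% of control (95% interval 124 to 220), with 0.73 in the authors' deposited table (SE 0.21, adjusted p = 0.00934). TPM3 had 0.50 in that table and lay just outside the threshold (SE 0.20, adjusted p = 0.0595; 5061 and 7171), while TPM1 had -0.02. ACTN4, the non-muscle alpha-actinin that bundles filaments in stress fibres, fell from 4535 to 1931, 42.6% of control (25.8 to 70.1), with -1.23 in the authors' deposited table (SE 0.37, adjusted p = 0.0114). Its close relative ACTN1 had 0.31 (SE 0.20, adjusted p = 0.290; 4694 and 5809) there. FLNA and FLNC did not pass: FLNA had 0.76 (SE 0.35, adjusted p = 0.116; 2644 and 4473) and FLNC 0.21 (SE 0.28, adjusted p = 0.660; 573 and 662) in the authors' deposited table. PDLIM4, a PDZ and LIM protein that binds alpha-actinin, rose from 1145 to 2064, 180% of control (120 to 270), with 0.85 there (SE 0.30, adjusted p = 0.0343). Focal adhesion genes VCL (vinculin, -0.22), ZYX (zyxin, -0.38), TLN1 (talin 1, 0.45) and PDLIM1 (-0.08) were not called in that table. TPM4 lies at chr19:16067021-16103005, ACTN4 at chr19:38647649-38731583 and PDLIM4 at chr5:132257671-132273454, all on the plus strand.

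Of the other actin-related genes ACTR1A was called. It encodes the filament-forming subunit of dynactin, a partner of the microtubule motor dynein, and so stands apart from the actin cortex. Its implied mean rose from 748 to 1571, 210% of control (95% interval 125 to 352), with 1.07 in the authors' deposited table (SE 0.38, adjusted p = 0.0366). It lies at chr10:102461881-102502711 on the minus strand. Its paralog ACTR1B had -0.86 (SE 0.52, adjusted p = 0.263) and ACTR10, also of dynactin, -0.74 (SE 0.38, adjusted p = 0.173) in that table.

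**Figure D2:**
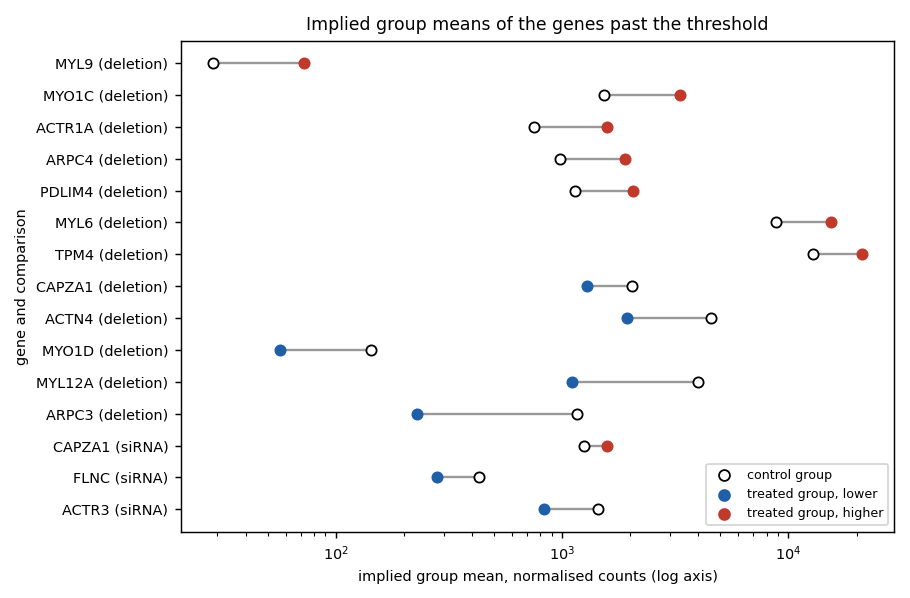
Implied group means in normalised counts (log axis) of each called member in the comparison where it was called; open circles are control groups, filled circles treated groups, and 1 line joins the pair. In the siRNA comparison ACTR3 has the longest of 3 steps, from 1442 to 830, and in the deletion ARPC3 has the longest of 12, from 1165 to 228.

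The deletion fold changes were set beside 2 technical measures. The first is precision in the siRNA table, taken as a gene's SE there over that of genes of like mean count. For 10 members this ratio was over 1.5: ACTN4, ARPC3, CAPZB, FLNA, MYL12A, MYL12B, MYO1D, PFN1, PFN2 and TPM4, or 15.4% of members beside 4.55% of all genes. After the deletion 8 of these 10 had a negative sign with a median log2 fold change of -1.08, 4 were called lower and 1 higher. Among the other 55 members 27 were negative, the median was 0.02, 1 was called lower and 6 higher. Over all genes the same division gave 416 of 496 negative with a median of -1.46, against 5041 of 10395 and 0.03. Of those 496 genes 263 were called lower and 18 higher, and of the 10395 genes 708 lower and 825 higher. So 4 of the 5 members that fell, CAPZA1 being the exception, belonged to genes that varied more than usual between libraries of the other experiment. Its part in the result was not tested.

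The second measure is base composition. It was taken from the transcript with the longest annotated 3′ UTR of each gene, which may not be the one these cells used. Over 69 members, the GC content of the last 500 transcript bases and the deletion log2 fold change had a Spearman correlation of 0.18, beside 0.31 over all 11625 genes with a value, and both describe genes that share the same 6 libraries. The called members that rose included GC-rich ends, 59.8% in MYO1C, 57.8% in ACTR1A and 56.4% in MYL6, but also 40.0% in TPM4 and 40.4% in ARPC4. With the trend on the GC content of the whole transcript removed, 5 members were called higher and 8 lower, and with that of the last 500 bases 6 higher and 10 lower, in place of 7 and 5. ARPC3, MYL12A, ACTN4, MYO1D, TPM4 and ARPC4 remained called under both. The other 6 did not, although none changed sign. With the trend of the whole transcript and of the last 500 bases removed, in that order, MYO1C went from 1.11 to 0.78 (adjusted p = 0.0566) and 0.58 (0.192), and MYL6 from 0.80 to 0.65 (0.0905) and 0.39 (0.363). ACTR1A went from 1.07 to 0.91 (adjusted p = 0.0897) and 0.61 (0.304), and PDLIM4 from 0.85 to 0.48 (0.296) and 0.78 (0.0633). MYL9 went from 1.33 to 0.94 (adjusted p = 0.172) and 0.99 (0.149), and CAPZA1 from -0.66 to -0.50 (0.0688) and -0.45 (0.105). The part of base composition in their change was not tested. Student's t with 4 degrees of freedom gave an adjusted p of 0.357 for each of the 12 called members and left 12 members at an unadjusted p under 0.05. Statistics divided by their robust standard deviation gave 0.271 for ARPC3 and 0.976 for the others, with 3 at an unadjusted p under 0.05. CALCRL itself had a Wald statistic of -3.43 in the deletion, in size between those of MYL9 (2.82) and MYL12A (-4.64). So neither of these settings called the target, and they do not set the members apart from it.

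**Figure D3:**
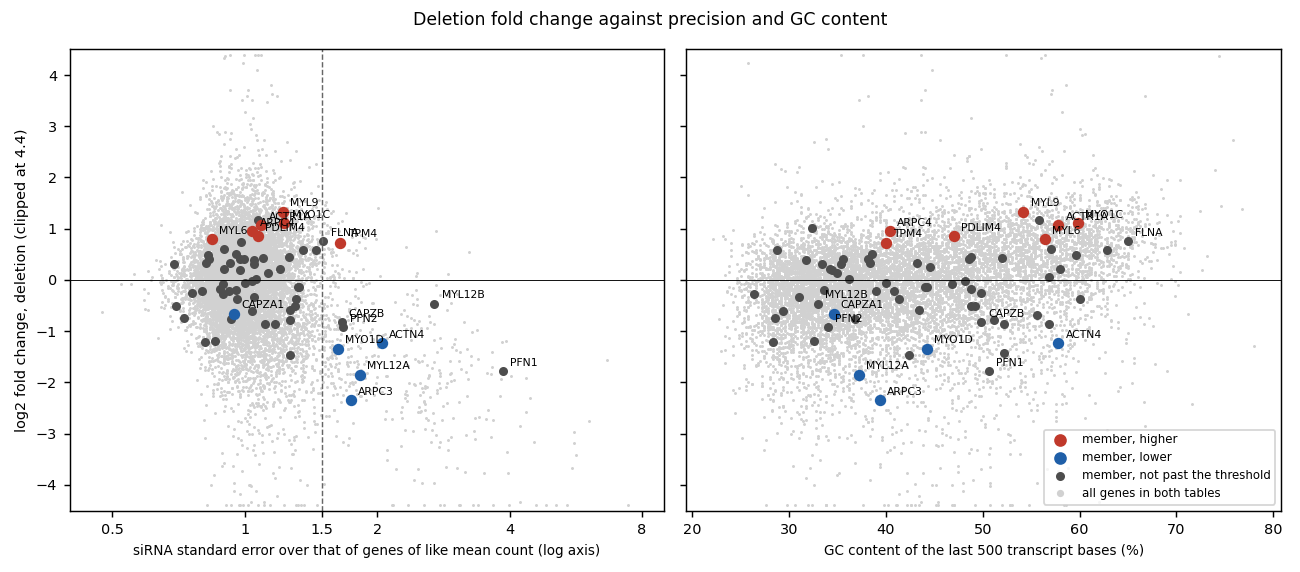
Deletion log2 fold change (treated over control, authors' deposited table) against the siRNA standard error relative to genes of like mean count (left, log axis, dashed line at 1.5) and against the GC content of the last 500 transcript bases in percent (right); grey dots are all genes, larger points members. Right of the dashed line 8 of 10 members lie below 0, and on the right panel the rising members reach from 40.0% (TPM4) to 59.8% (MYO1C).

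Parts of some 3′ ends also occur in transcripts of another annotated gene, so that reads could be assigned to either gene. Of the 50-base words in the last 500 bases, 23.9% in ARPC3, 26.4% in TPM4, 24.4% in PFN1 and 67.2% in ARPC1B were found in another annotated gene, pseudogenes included, whereas 4.21% were in CAPZA1 and none in ACTR3, FLNC, MYO1C or ACTN4. How shared reads were counted is not given in the sources used here, so the values of the first 4 are uncertain to that extent. For ARPC1B the other gene was AC004922.1, which is annotated as overlapping it on the same strand.

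The comparisons were then set against each other gene by gene, as the siRNA minus the deletion log2 fold change with the SEs combined. The experiments share no libraries. Of the 65 members 12 differed at an adjusted p under 0.05 (18.5%), beside 13.7% of all 10891 genes, and 24 at an unadjusted p under 0.05. Of these 12, 6 were higher and 6 lower after the deletion than after the siRNA. CAPZA1 was the 1 member called in both comparisons and had opposite signs, with a difference of 1.00 (SE 0.22, adjusted p = 4.21e-04). ARPC3 differed by 2.45 (SE 0.35, adjusted p = 1.22e-08) and MYL12A by 1.72 (SE 0.44, adjusted p = 0.00352), both called lower after the deletion and not called after the siRNA. ACTR3 differed by -0.60 (SE 0.22, adjusted p = 0.0483), being lower after the siRNA, and its adjusted p was 0.0546 without the genes of low precision. Relative to the siRNA, MYO1D, ACTN4 and ARPC1B were likewise lower after the deletion, and MYO1C, ARPC4, MYL6, FLNA and TPM4 higher, although ARPC1B and FLNA were called in neither comparison alone. With the GC trend of the last 500 bases removed, the differences of FLNA (-0.40, adjusted p = 0.534), MYL6 (-0.46) and MYO1C (-0.64, adjusted p = 0.182) did not pass, and those of the other 9 did.

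Among the members called in either comparison, 14 in all, FLNC, MYL9, PDLIM4 and ACTR1A did not pass the test of the difference. Their differences were -0.82 (SE 0.31, adjusted p = 0.0579), -1.36 (SE 0.51, adjusted p = 0.0563), -0.81 (SE 0.32, adjusted p = 0.0641) and -0.93 (SE 0.40, adjusted p = 0.0935), each short of the threshold, so a like response in both comparisons is not shown either. Signs were the same in 26 members, 14 positive in both and 12 negative in both, while 23 were positive after the siRNA and negative after the deletion and 16 the reverse. Over the 65 members the fold changes of the comparisons were related by Spearman's rho = -0.22 and Pearson's r = -0.18, beside rho = 0.02 over all genes, given as a description of points that rest on the same libraries. No member was called in the same direction by both ways of lowering CALCRL, which itself stood at 34.0% and 36.2% of control. Only 3 members were called after the siRNA and 12 after the deletion, beside 3.46% and 15.8% of all genes. How many of all genes were called alike in both was not counted, so no weight can be put on this absence.

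**Figure D4:**
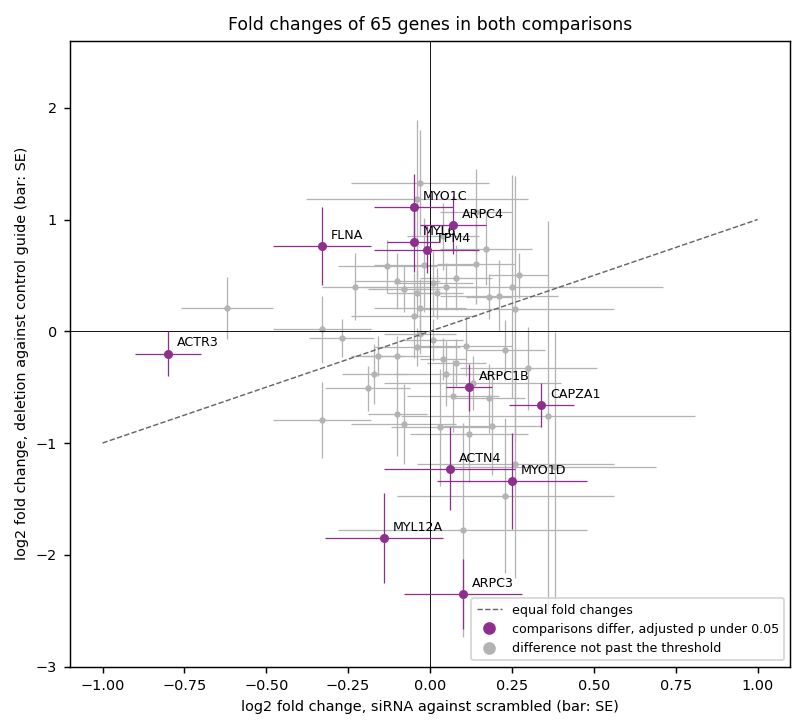
Log2 fold change of the 65 members measured in both comparisons, siRNA on the horizontal and deletion on the vertical axis, with bars of 1 SE and a dashed line of equal change; the axes differ in scale. The 12 purple genes differed between the comparisons at an adjusted p under 0.05, with CAPZA1 at 0.34 and -0.66, ARPC3 at 0.10 and -2.35, and ACTR3 at -0.80 and -0.20.

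CArG boxes, the site of serum response factor, are well known from actin and muscle-type promoters and were searched in the RefSeq promoter windows of GRCh38.p14, from 250 bases before to 50 after the start, on both strands. A box occurred in 438 of 27305 genes (1.60%) and in 5 of the 60 members with an entry (8.33%). The 5 windows are shown so that the boxes can be compared; they read 5′ to 3′ on the strand of the gene, with the box in capitals.
ACTG1, chr17:81512884-81512893: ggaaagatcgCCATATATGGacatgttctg
ACTN1, chr14:68977728-68977737: acgctcatgtCCAAAAATGGtaacattcat
FLNA, chrX:154374719-154374728: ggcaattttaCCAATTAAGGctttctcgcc
MYO1E, chr15:59372893-59372902: gctgagttctCCATTTATGGacagattgcc
TPM4, chr19:16067365-16067374: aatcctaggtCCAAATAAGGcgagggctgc

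These 5 genes did not move alike. In the siRNA comparison of the authors' deposited table their log2 fold changes were -0.04 (ACTG1), 0.18 (ACTN1), -0.33 (FLNA), -0.33 (MYO1E) and -0.01 (TPM4), and none was called. In the deletion comparison of the authors' deposited table they were -0.14, 0.31, 0.76, 0.02 and 0.73 in the same order, and TPM4 was called higher. A match describes the letters of the window and is not evidence of binding.

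Regulators and partners of actin outside the symbol rule were read from a list of 78 genes, all present in both tables. After the siRNA 3 of them were called (3.85%, median log2 fold change 0.02), beside 3.46% of all genes. PLS3 (plastin 3, a bundler) had 0.28 (SE 0.07, adjusted p = 0.00581) and WDR1, a cofactor of cofilin in taking filaments apart, 0.29 (SE 0.09, adjusted p = 0.0264) in the authors' deposited table. SYNPO (synaptopodin) had -0.37 there (SE 0.11, adjusted p = 0.0291). After the deletion 15 were called (19.2%, median -0.04), 6 higher and 9 lower, beside 15.8% of all genes, 7.40% higher and 8.44% lower. TMSB4X, thymosin beta-4, which sequesters actin monomers, went from an implied mean of 6558 to 726, 11.1% of control (95% interval 4.04 to 30.3), with -3.18 in the authors' deposited table (SE 0.74, adjusted p = 9.61e-04). Its SE in the siRNA table was 5.59 times that of genes of like mean count. TWF2, twinfilin 2, which binds monomers and capping protein, went from 424 to 47.5, with -3.16 there (SE 0.92, adjusted p = 0.00934).

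NCKAP1 and ABI1, parts of the WAVE complex that activates Arp2/3, fell by 1.21 (SE 0.33, adjusted p = 0.00533) and by 1.27 (SE 0.36, adjusted p = 0.00770) on the log2 scale in the authors' deposited table, while WASF2, the WAVE2 protein itself, rose by 0.62 (SE 0.21, adjusted p = 0.0229). The small GTPase gene RHOB fell from 215 to 60.0, with -1.84 in that table (SE 0.50, adjusted p = 0.00518). The formin FMNL3, which elongates unbranched filaments, rose by 1.03 (SE 0.26, adjusted p = 0.00200) and calponin CNN2 by 0.87 (SE 0.28, adjusted p = 0.0203) in the authors' deposited table. PLS3 and SYNPO were called in both comparisons with opposite signs, as CAPZA1 was, at -0.68 (SE 0.20, adjusted p = 0.0105) and 0.74 (SE 0.26, adjusted p = 0.0330) after the deletion. EZR and PPP1R12C were also called higher, and LPP, PARVA and SSH2 lower.

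CALCRL lies on chromosome 2 (chr2:187343129-187448460, minus strand). ARPC2, 30.8 Mb away on the same chromosome, was not called after the deletion. The 12 members called after the deletion lie on chromosomes 1, 3, 5, 10, 12, 17, 18, 19 and 20.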

How the data were processed

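RNA was measured in 14 teloHAEC libraries, grouped by the labels' treatment. The authors deposited 2 tables, 1 per comparison, holding for each gene its mean normalised count, log2 fold change with SE, Wald statistic (a score), and raw and adjusted p-value; per the file headers and names these are DESeq2 results on reads counted with featureCounts, written with decimal commas. The submitters' processing notes name edgeR 3.24.3 and hg19, with no role given. The aligner and the gene annotation are not given in the sources used here. Deposited statistics equalled fold change over SE, and adjusted p-values the Benjamini-Hochberg values over the rows; 5 deletion genes had no p-value. All fold changes, SEs and adjusted p-values of single genes and comparisons are the authors' (DESeq2 Wald test), with no values per library, so counts could not be retested.

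Computed here (Python 3.11.15, pandas 2.3.3, scipy 1.17.1, statsmodels 0.14.6) were the implied group means, the 95% intervals (fold change ± the normal quantile times SE), and the difference between comparisons (normal test with combined SEs, Benjamini-Hochberg over 10891 genes), which was tested on simulated data. Depth is unknown, and the SE alone gives precision. Positions, GC content and 3′ UTRs came from GENCODE release 29 (GRCh38), which matched 11099 siRNA and 11625 deletion genes with a p-value and may not be the authors' annotation. GC content, 3′ UTR and last 500 bases were those of 1 transcript per gene. Complete protein-coding transcripts came first, then the longest annotated 3′ UTR, whichever end the libraries captured. Alternatives were a stricter threshold, a Student t reference, scaling by the robust SD, centring, a mean count of at least 20, GC trends (lowess, span 0.3) and leaving out genes with an siRNA SE ratio over 1.5. The last, and the GC content of the last 500 bases, were added after seeing the data.

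The members, role groups and lists were chosen with earlier results of these data known. Genes were named by rule: all called members, those differing between comparisons, the most abundant of each role, and called genes of the pathway list up to 10 per comparison. Some members included in the counts are not reported here by name. Other genes named were picked after their values were seen, to describe their role groups.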

Additional observations from a re-analysis of the deposited data

Results flagged for a closer look

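For 12 members the response to the CALCRL siRNA and to the enhancer deletion differed when the difference itself was tested (siRNA minus deletion log2 fold change, normal test on the combined SEs of the DESeq2 fits, adjusted over all genes in both tables). Lower after the deletion were ARPC3 at 2.45, MYL12A at 1.72, MYO1D at 1.60, ACTN4 at 1.29, CAPZA1 at 1.00 and ARPC1B at 0.62. Higher after the deletion were MYO1C at -1.16, FLNA at -1.09, MYL6 at -0.85, ARPC4 at -0.88, TPM4 at -0.74 and ACTR3 at -0.60, the last because it was lower after the siRNA. With the GC trend of the last 500 bases removed, MYO1C at -0.64 (adjusted p = 0.182), FLNA at -0.40 (0.534) and MYL6 at -0.46 no longer passed, while the other 9 did. The adjusted p-values ran from 1.22e-08 for ARPC3 to 0.0483 for ACTR3. The experiments also differ in delivery, in time after treatment (24 hours and 2 days) and in control, and these cannot be told apart from the way CALCRL was lowered.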

How the results depend on the processing

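No paired analysis was possible because values per library were not among the deposited columns used here. The replicate block, leaving out each replicate, and tests on counts were therefore not run. The 3 siRNA and 12 deletion members called became 0 and 0 under a Student t reference (6 and 12 at an unadjusted p under 0.05). With statistics divided by their robust SD, the deletion count was 0 (3 unadjusted) and that of members differing 0 in place of 12 (4 unadjusted). In the deletion comparison CALCRL itself was not called under either of these settings. At an adjusted p under 0.01, 5 deletion members and 4 differing members passed. Without the genes imprecise in the siRNA table, 7 deletion and 5 differing members were called: the imprecise ones were no longer tested, and ACTR3 missed the threshold of the difference (adjusted p = 0.0546). The other pathway genes called, 3 and 15, became 1 and 6 at an adjusted p under 0.01, 0 and 0 under Student t (5 and 11 unadjusted) and 1 and 0 under the robust SD (5 and 3 unadjusted). The cause was not tested. Centring, a mean count of at least 20 and both GC trends kept the counts called in either direction within 1.5 times in each comparison. The first 2 and the GC trend of the last 500 bases did so for the differing members. By direction, members called lower after the deletion went from 5 to 8 (whole transcript) and 10 (last 500 bases) under the GC trends. Genes also changed under the GC trends as given above. The members' median stayed between 0.02 and 0.04 for the siRNA and between -0.06 and 0.03, against -0.07, for the deletion. No called gene changed sign. Depth per library is unknown, so the lowest members could not be judged beyond their SE.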
